A study of Rattus norvegicus with 9 samples.

Results

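Splicing is carried out by the core proteins of the spliceosome and steered by 2 large groups of RNA-binding proteins, the SR proteins and the hnRNP proteins. Genes of these groups were taken from a table of gene expression in rat heart by the start of their symbols, Snrp, Sf3a, Sf3b, Srsf, Prpf, U2af, Lsm or Hnrnp. The 8 families held 84 of the 22601 genes in the table, with 19 Hnrnp, 15 Lsm, 13 Prpf, 3 Sf3a, 6 Sf3b, 13 Snrp, 12 Srsf and 3 U2af genes. The symbols alone decided which genes were taken, and no expression value entered that rule. The genes were, however, chosen with earlier results of these data known. Of the 84 genes, 56 carried the spliceosome pathway in the annotation deposited with the table. Lsmem1 and Lsmem2 match the letters Lsm but encode leucine-rich single-pass membrane proteins and not LSm proteins, so the counts over all families, and those of the Lsm family, are also given without them where they were called.

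Heart tissue of rats aged 48 weeks was sequenced in 9 libraries, 3 for each of 3 groups. The group SHR+Allisartan consisted of spontaneously hypertensive rats, an inbred strain that develops high blood pressure, given allisartan by mouth for 34 weeks. Allisartan blocks the angiotensin II type 1 receptor, and its dose is not stated in the labels. The group SHR was the same strain given distilled water by mouth for the same 34 weeks. The group WKY was Wistar Kyoto rats, the usual strain with normal blood pressure set beside SHR, given water in the same way. Strain and blood pressure differed together between SHR and WKY, so their parts cannot be told apart. The labels do not say whether each library came from a different rat, and p-values therefore measure only the spread between these libraries. The labels name no part of the heart.

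Introns are removed by small nuclear ribonucleoproteins (snRNPs), each made of a small RNA, a ring of Sm or LSm proteins and proteins of its own. U1 binds the 5′ splice site, the U2AF proteins mark the 3′ splice site, U2 with its SF3a and SF3b complexes takes the branch point, and U4, U6 and U5 then join to build the active site. SR proteins mostly promote the use of nearby exons and hnRNP proteins often oppose it, and in heart muscle shifts between splice forms accompany development and disease.

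Levels are the deposited FPKM, a count of fragments made relative to the length of the transcript and the size of the library, divided by 1 factor per library, so they can be set side by side between genes of different length. Over the 80 genes that passed the filter on low values (at least 0.5 in 3 or more libraries), the median level was 17.2, against 5.48 over all 11717 genes that passed. The filter did not depend on any 1 group, since all 80 also passed it without the libraries of SHR+Allisartan, of SHR or of WKY. Among the 4 others, Prpf31, a protein of the U4/U6 snRNP, and Srsf8 were listed at 0 in all 9 libraries. Prpf31 is a gene that every cell is thought to use, so a value of 0 here may be a failed estimate and is not read as absence. Srsf12 and the D2-like gene Snrpd2l stayed under the filter. All 84 genes were found in the reference by gene identifier.

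Hnrnpa2b1 was the most abundant gene of the 8 families, at 369.7 ± 12.1 in SHR+Allisartan hearts, 201 ± 11.1 in SHR hearts and 217 ± 10.1 in WKY hearts (mean ± SD, n = 3 libraries each, as for all means here). On the mean over all 9 libraries it was followed in its family by Hnrnpa1, with 65.8 ± 4.64 in SHR+Allisartan, 50.3 ± 5.27 in SHR and 56.2 ± 1.25 in WKY, and by Hnrnpk, which was the higher of the pair in SHR and WKY. Srsf5 led the SR proteins at 61.5 ± 5.40 in SHR+Allisartan, 57.9 ± 8.14 in SHR and 75.9 ± 11.0 in WKY, ahead of Srsf2 in each group. In each of the 3 groups the most abundant gene of its family was Snrpe, Prpf19, Lsm14b or Sf3a2. In the families Sf3b and U2af the order differed between groups, with Sf3b2 first in SHR+Allisartan and Sf3b5 first in SHR and WKY, and with U2af1l4 first in SHR+Allisartan and U2af2 first in SHR and WKY. On the same mean, the genes that came next were Snrpd2 and Snrpc, Prpf8 and Prpf6, Lsm12 and Lsm14a, and Sf3a3 and Sf3a1, and the lowest tested genes were Lsm11, Hnrnph3, Lsm5 and Lsm7.

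Together the 84 genes held 0.514% to 0.527% of the FPKM of a library in SHR+Allisartan hearts, 0.432% to 0.454% in SHR hearts and 0.444% to 0.476% in WKY hearts. The 19 Hnrnp genes carried most of that difference, with summed levels of 910, 923 and 889.8 in the SHR+Allisartan libraries, 635, 607 and 636 in the SHR libraries and 653, 679 and 673 in the WKY libraries. A large part of this came from Hnrnpa2b1 alone, with means of 369.7 in SHR+Allisartan, 201 in SHR and 217 in WKY. The Srsf genes summed to 200.3, 203 and 194 in SHR+Allisartan, 168, 172 and 171 in SHR, and 197, 222 and 205 in WKY. For Hnrnp genes the sum was highest in SHR+Allisartan and did not overlap with either other group, while for Srsf genes the SHR libraries were the lowest and the SHR+Allisartan and WKY ranges overlapped. The Sf3b genes did not share this pattern, with sums of 118, 121 and 113 in SHR+Allisartan, 133, 121 and 139 in SHR, and 135, 134 and 135 in WKY, where the SHR+Allisartan and SHR ranges overlapped. In bulk tissue, fewer cells of a type and less RNA per cell cannot be told apart.

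**Figure D1:**
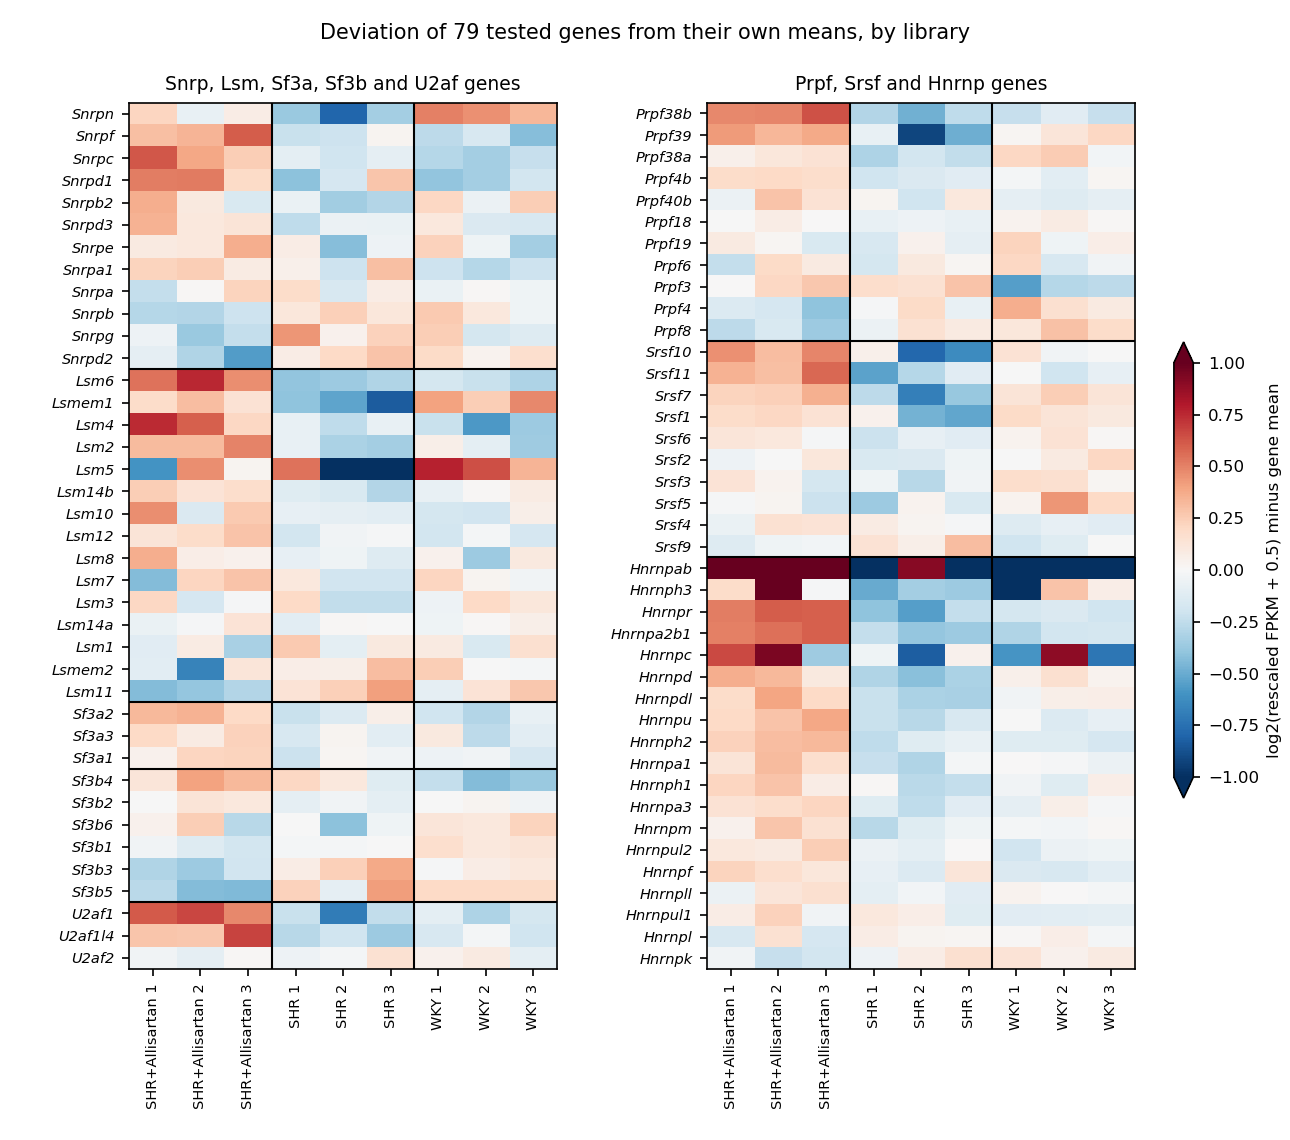
Deviation of 79 of the 80 tested genes, each from its own mean over 9 libraries, on the log2(rescaled FPKM + 0.5) scale, with libraries of SHR+Allisartan, SHR and WKY as columns and families separated by lines. Most rows are red in the SHR+Allisartan columns, while Snrpb, Snrpd2, Sf3b3, Sf3b5, Prpf8 and Lsm11 are blue there, and Snrpn, Lsmem1 and Srsf7 are blue in the SHR columns.

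The comparison of treated with untreated hypertensive rats asks what allisartan changed. SHR+Allisartan hearts had higher levels of most hnRNP genes, of the small U2AF subunits, and of several Sm, LSm, U1-associated and SR genes, while a smaller set led by Sf3b3, Sf3b5, Snrpb and Snrpd2 was lower. With limma, 34 of the 80 tested genes were called higher and 7 lower at a Benjamini-Hochberg adjusted p under 0.05 taken over all genes tested. That is 42.5% higher and 8.75% lower, against a background over all genes of 16.1% called higher and 17.4% called lower. With no rescaling that background was 12.8% higher and 20.7% lower, so its balance of directions depended on the library factors. The median log2 change of the 80 genes was 0.26, against -0.03 over all genes. Without the 2 Lsmem genes the counts were 33 higher and 7 lower of 78. In 42 genes every SHR+Allisartan library lay above every SHR library and in 10 every one lay below, where 21.5% and 24.9% of all genes did so. A log2 change here is 1 group mean of log2(rescaled FPKM + 0.5) minus the other, a scale on which low genes appear to change less.

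By family, 11 of 19 Hnrnp genes were called higher and 0 lower, 6 of 15 Lsm genes higher and 1 lower (5 and 1 of 13 without the Lsmem genes), 5 of 12 tested Prpf genes higher and 1 lower, and 5 of 12 tested Snrp genes higher and 3 lower. Of 10 tested Srsf genes 4 were higher and 0 lower, of 3 U2af genes 2 were higher and 0 lower, and of 3 Sf3a genes 1 was higher and 0 lower. Sf3b stood alone in having 0 genes called higher and 2 of 6 called lower. At an unadjusted p under 0.05 in limma, 1 Hnrnp, 1 Srsf, 0 U2af and 0 Sf3a genes were lower and 1 Sf3b gene was higher. The family medians of the log2 change ran from 0.03 for Sf3b and 0.12 for Prpf to 0.39 for Hnrnp and 0.69 for U2af.

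**Figure D2:**
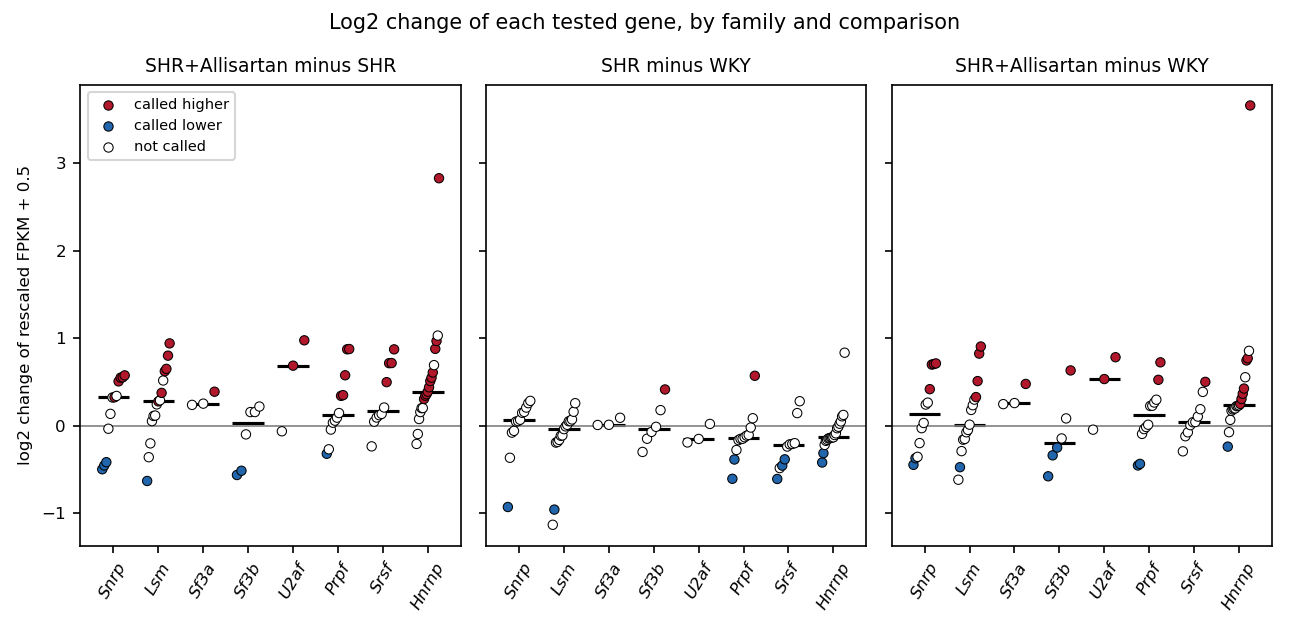
Log2 change of each of the 80 tested genes by family in SHR+Allisartan minus SHR, SHR minus WKY and SHR+Allisartan minus WKY, where red and blue points passed an adjusted p of 0.05, open points did not and black lines are family medians. In SHR+Allisartan minus SHR the Hnrnp median is 0.39 and the Sf3b median 0.03, and in SHR minus WKY the Srsf median is -0.23.

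Because many of these genes were higher together in SHR+Allisartan hearts, their promoters were set side by side, and those of the 4 genes with the smallest p among the higher ones and the 2 with the smallest p among the lower ones are printed. Each is the RefSeq sequence on build GRCr8 from 250 bases before to 50 bases after the gene's start, 5′ to 3′ on the gene's strand. Capitals mark CCAAT, a box bound by NF-Y, read on either strand (ATTGG on the other), and TGACGT, the core of the element bound by CREB and ATF factors. The 2 motifs were picked for the capitals after the counts of 7 motifs were seen.
Hnrnpa2b1 (chr4:81875837-81876136, minus strand): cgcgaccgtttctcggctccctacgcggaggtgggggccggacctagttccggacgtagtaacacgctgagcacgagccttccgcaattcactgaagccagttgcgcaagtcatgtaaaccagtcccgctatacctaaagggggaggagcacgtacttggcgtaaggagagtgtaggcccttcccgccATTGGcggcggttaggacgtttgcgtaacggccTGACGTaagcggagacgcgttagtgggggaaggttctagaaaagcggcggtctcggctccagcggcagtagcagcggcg
Hnrnpr (chr5:153826269-153826568, plus strand): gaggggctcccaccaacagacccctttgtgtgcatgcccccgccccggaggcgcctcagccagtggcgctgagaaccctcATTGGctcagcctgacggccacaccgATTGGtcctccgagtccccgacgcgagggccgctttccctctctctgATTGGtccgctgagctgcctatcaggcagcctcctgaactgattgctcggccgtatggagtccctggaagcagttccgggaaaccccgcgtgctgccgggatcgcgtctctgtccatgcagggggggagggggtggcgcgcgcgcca
Prpf38b (chr2:199250289-199250588, minus strand): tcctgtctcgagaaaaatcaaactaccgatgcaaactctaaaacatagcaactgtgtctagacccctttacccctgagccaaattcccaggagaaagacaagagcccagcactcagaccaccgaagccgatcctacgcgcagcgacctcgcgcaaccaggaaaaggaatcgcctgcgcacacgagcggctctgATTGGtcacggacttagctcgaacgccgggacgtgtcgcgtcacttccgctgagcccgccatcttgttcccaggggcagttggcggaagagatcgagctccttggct
Lsm6 (chr19:46002342-46002641, plus strand): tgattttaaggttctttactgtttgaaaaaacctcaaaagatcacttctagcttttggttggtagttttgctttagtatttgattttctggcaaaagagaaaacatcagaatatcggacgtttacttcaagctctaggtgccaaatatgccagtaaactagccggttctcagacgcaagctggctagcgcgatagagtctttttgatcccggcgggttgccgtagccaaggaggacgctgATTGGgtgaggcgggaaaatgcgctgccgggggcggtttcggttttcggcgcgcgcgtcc
Sf3b3 (chr19:55729572-55729871, minus strand): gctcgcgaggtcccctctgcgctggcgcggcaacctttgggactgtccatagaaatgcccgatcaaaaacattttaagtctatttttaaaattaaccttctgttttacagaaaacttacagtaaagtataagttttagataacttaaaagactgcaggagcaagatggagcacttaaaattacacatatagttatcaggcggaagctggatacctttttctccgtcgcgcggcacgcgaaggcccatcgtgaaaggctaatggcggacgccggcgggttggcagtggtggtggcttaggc
Sf3b5 (chr1:9176939-9177238, plus strand): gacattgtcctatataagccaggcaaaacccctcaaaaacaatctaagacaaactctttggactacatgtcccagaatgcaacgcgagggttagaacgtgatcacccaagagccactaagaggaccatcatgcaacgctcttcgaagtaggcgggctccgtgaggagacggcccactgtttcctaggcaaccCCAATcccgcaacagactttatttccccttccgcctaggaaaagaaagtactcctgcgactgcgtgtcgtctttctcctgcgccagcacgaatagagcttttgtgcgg

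Promoter sequences were found for 73 of the 80 tested genes, and both strands were searched. CCAAT was in 21 of the 33 promoters of genes called higher in SHR+Allisartan and in 16 of the 40 others, against 39.0% of 9449 tested genes and 37.5% of all 33469 promoters in the reference. TGACGT was in 12 of the 33 and 6 of the 40, against 12.2% of tested genes and 7.94% of all promoters. CCGGAAG, a form of the ETS site, was in 5 of the 33 and in 15 of the 40, against 18.6% of tested genes and 8.74% of all promoters. GGGCGG, bound by SP and KLF factors, was in 23 of the 33 and 22 of the 40, against 64.1% of tested genes and 33.1% of all promoters. TATAAA and the E-box CACGTG were each in 7 of the 33 and 3 of the 40, against 7.44% and 10.04% of tested genes and 14.2% and 6.42% of all promoters. The NRF1 site, searched as GCGC, any base and TGCGC, was in 8 of the 33 and 8 of the 40, against 10.5% of tested genes and 4.26% of all promoters. Matches of different motifs may share bases, a match is not a bound site, and no test was made of these counts.

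Among hnRNP proteins, which coat nascent transcripts, Hnrnpa2b1 changed with the smallest p. Its level was 357, 371 and 381 in SHR+Allisartan hearts, against 214, 193 and 197 in SHR hearts, with 205, 222 and 223 in WKY hearts. Every SHR+Allisartan library lay above all others, and the log2 change from SHR was 0.88 (SE 0.07, adjusted p = 2.26e-05), a fold of 1.84. Hnrnpr, a close relative of Syncrip that binds mRNA in transport and translation, had 14.1, 15.1 and 14.97 in SHR+Allisartan, against 7.25, 6.505 and 8.19 in SHR, with 8.55, 8.77 and 8.42 in WKY. It was about as far apart as Hnrnpa2b1, with a log2 change of 0.97 (SE 0.09, adjusted p = 6.38e-05). Hnrnpd, also called AUF1 and known for binding AU-rich elements of unstable mRNAs, had 32.7, 31.8 and 27.1 in SHR+Allisartan, against 20.4, 18.8 and 20.2 in SHR, with 26.1, 28.3 and 25.8 in WKY. Here the SHR libraries were the lowest of all 9 (log2 change 0.61, SE 0.09, adjusted p = 0.000502). Its relative Hnrnpdl showed a log2 change of 0.55 (adjusted p = 0.000553). Hnrnpu, which binds chromatin-associated RNA, had 34.8, 37.1 and 39.8 in SHR+Allisartan, against 25.9, 24.9 and 27.1 in SHR, with 30.2, 27.5 and 28.6 in WKY (log2 change 0.51, SE 0.07, adjusted p = 0.000607).

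The other called Hnrnp genes were Hnrnph2, Hnrnpa1, Hnrnph1, Hnrnpa3, Hnrnpm and Hnrnpab, all higher. Hnrnph2 and Hnrnph1 bind runs of G, and their log2 changes were 0.44 and 0.36. Hnrnpa1, the classic antagonist of SR proteins in splice site choice, changed by 0.39 (adjusted p = 0.00551), Hnrnpa3 by 0.34 and Hnrnpm by 0.30. Hnrnpab had 45.4, 11.4 and 7.84 in SHR+Allisartan, against 0.956, 6.46 and 0.750 in SHR, with 0.495, 1.31 and 0.742 in WKY. Its log2 change of 2.83 (SE 0.69, adjusted p = 0.0101) was the largest of the 80 genes, on libraries of the same group that differed by up to 8.605-fold. Hnrnpk, which binds C-rich RNA, was on the other side, with 55.3, 48.5 and 49.9 in SHR+Allisartan, against 54.9, 59.7 and 63.4 in SHR, overlapping groups and a log2 change of -0.21 (adjusted p = 0.0552). It was called lower with no rescaling, with quantile normalization and with cyclic loess (adjusted p = 0.0196, 0.0212 and 0.0144), and also without SHR 1 or without SHR+Allisartan 1 (adjusted p = 0.0319 and 0.0321). Hnrnpl, which binds CA repeats, and Hnrnpc, which binds runs of U, were not called (log2 changes of -0.10 and 0.69, adjusted p = 0.426 and 0.253), and Hnrnpc spread widely within SHR+Allisartan, at 8.18, 10.1 and 3.81. The calls of Hnrnph1 ended without SHR 2, SHR 3 or SHR+Allisartan 2 (adjusted p = 0.0533, 0.0509 and 0.0533), and those of Hnrnpm without SHR 1 or SHR+Allisartan 2 (adjusted p = 0.0704 and 0.0836) and with no rescaling (adjusted p = 0.0663).

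**Figure D3:**
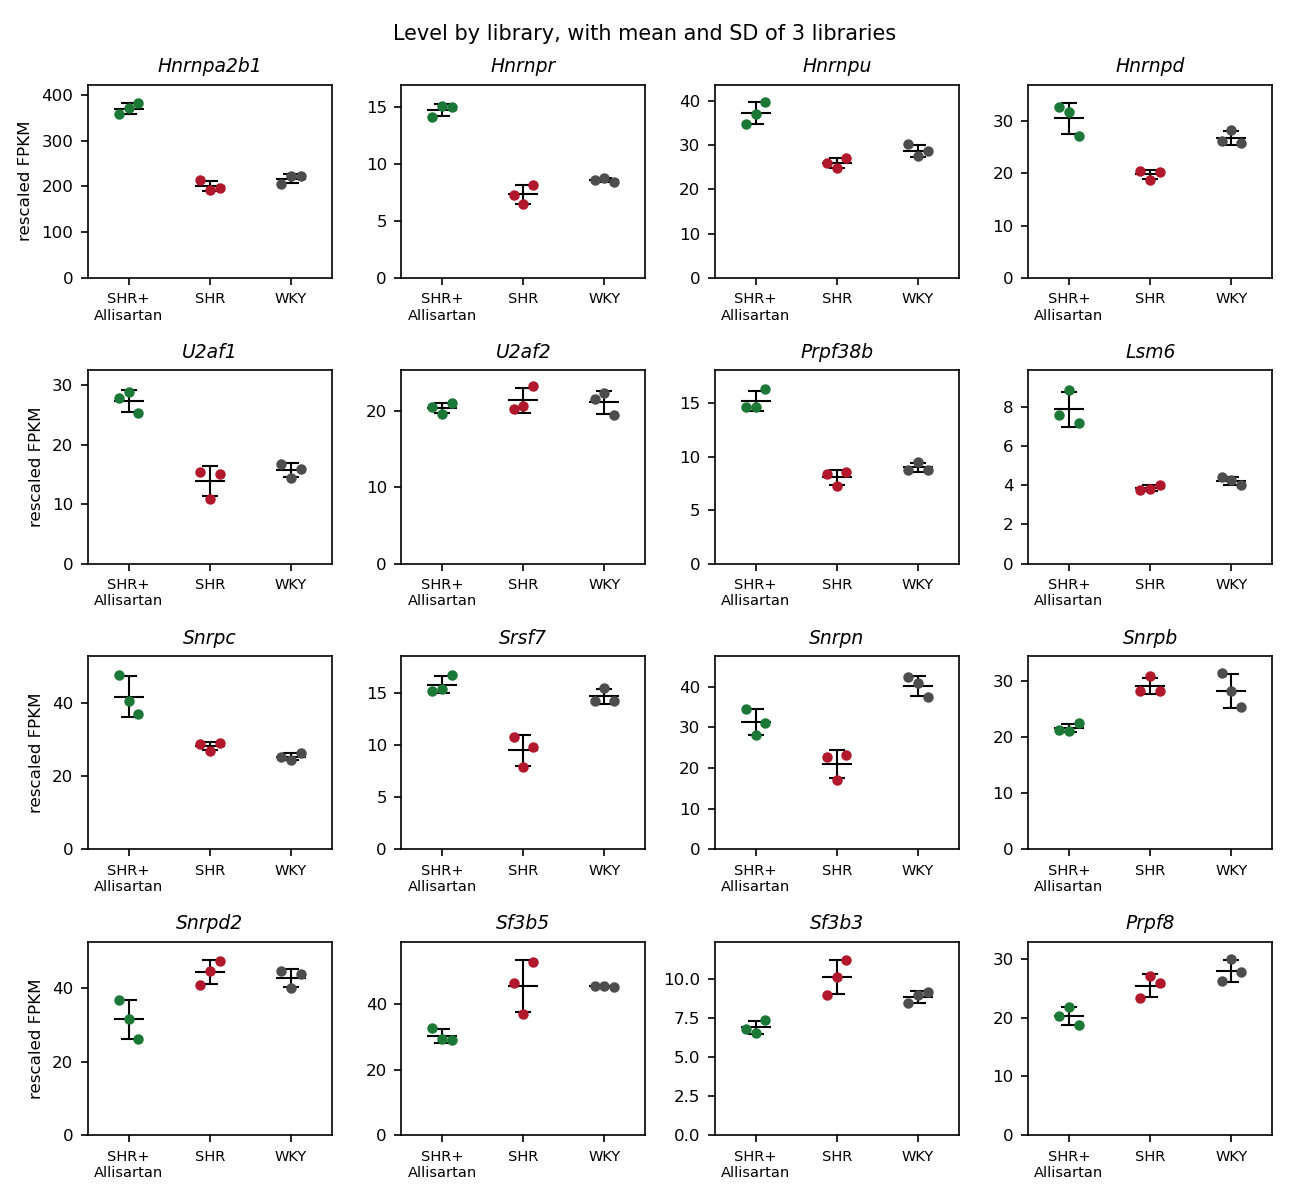
Rescaled FPKM of 16 genes in each library of SHR+Allisartan, SHR and WKY, with bars for the mean and SD of 3 libraries and axes from 0. Hnrnpa2b1, Hnrnpr, U2af1, Prpf38b and Lsm6 are highest in SHR+Allisartan, U2af2 overlaps between all groups, and Sf3b5, Sf3b3, Snrpb, Snrpd2 and Prpf8 are lowest in SHR+Allisartan.

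At the 3′ splice site, U2af1, the small subunit that reads the AG at the intron's end, had 27.9, 28.9 and 25.4 in SHR+Allisartan hearts, against 15.5, 10.9 and 15.1 in SHR hearts, with 16.8, 14.5 and 15.9 in WKY hearts. SHR+Allisartan stood above both other groups, whose ranges overlapped, and the log2 change from SHR was 0.98 (SE 0.12, adjusted p = 0.000317). U2af1l4, a paralog of the small subunit, had 25.5, 25.4 and 33.9 in SHR+Allisartan, against 17.2, 18.3 and 16.2 in SHR (log2 change 0.69, SE 0.11, adjusted p = 0.00124). U2af2, the large subunit that binds the pyrimidine tract and pairs with U2af1, had 20.5, 19.7 and 21.1 in SHR+Allisartan, against 20.3, 20.7 and 23.3 in SHR, with 21.6, 22.3 and 19.5 in WKY. Its groups overlapped, with a log2 change of -0.07 (SE 0.08, adjusted p = 0.571). The ratio of U2af1 to U2af2 levels, chosen after the values were seen, was therefore 1.35 ± 0.13 in SHR+Allisartan, 0.647 ± 0.117 in SHR and 0.748 ± 0.088 in WKY.

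Sm proteins form the ring shared by U1, U2, U4 and U5, and its genes did not move as a unit. Called higher in SHR+Allisartan hearts were Snrpn, Snrpd1, Snrpd3 and Snrpf, and called lower were Snrpb, Snrpd2 and Snrpg, while Snrpe was not called (log2 change 0.32, adjusted p = 0.141). Snrpb had 21.2, 21.1 and 22.4 in SHR+Allisartan, against 28.1, 30.8 and 28.2 in SHR, with 31.3, 28.1 and 25.2 in WKY, a log2 change of -0.42 from SHR (SE 0.09, adjusted p = 0.00418). Its paralog Snrpn, whose protein SmN can take the place of SmB in brain and heart, had 34.6, 28.2 and 31.2 in SHR+Allisartan, against 22.8, 17.0 and 23.3 in SHR, with 42.3, 40.9 and 37.4 in WKY (log2 change 0.57, SE 0.12, adjusted p = 0.00498). The pair thus went in opposite directions. As a share of the summed Snrpn and Snrpb levels, a quantity chosen after the values were seen, Snrpn was 59.1 ± 2.5% in SHR+Allisartan, 41.8 ± 5.5% in SHR and 58.8 ± 1.2% in WKY, while the sum itself was 52.9 ± 3.33 in SHR+Allisartan, 50.02 ± 2.03 in SHR and 68.4 ± 5.54 in WKY. Snrpd2 had 36.6, 31.5 and 26.3 in SHR+Allisartan, against 41.0, 44.7 and 47.5 in SHR, with 44.7, 40.0 and 43.8 in WKY (log2 change -0.50, SE 0.11, adjusted p = 0.0064). Its groups did not overlap, and the SHR and WKY ranges did. Snrpd1 had 23.4, 23.5 and 18.6 in SHR+Allisartan, against 12.1, 14.4 and 19.8 in SHR, so its groups overlapped although it was called. The remaining log2 changes were 0.55 for Snrpf, 0.51 for Snrpd1, 0.32 for Snrpd3 and -0.46 for Snrpg.

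Of these, the call of Snrpd1 ended without SHR 1, SHR 2, SHR+Allisartan 1 or SHR+Allisartan 2 (adjusted p = 0.103, 0.089, 0.0926 and 0.0961), with no filter on low values (adjusted p = 0.0606) and with only the 6 libraries of both groups (adjusted p = 0.0531). That of Snrpd3 ended without any 1 of SHR 1, SHR 2, SHR 3 and SHR+Allisartan 1 (adjusted p = 0.103, 0.0514, 0.0553 and 0.112) and with no rescaling (adjusted p = 0.0687), and that of Snrpg without SHR 1, SHR 3, SHR+Allisartan 2 or SHR+Allisartan 3 (adjusted p = 0.085, 0.0621, 0.0879 and 0.0559).

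Proteins particular to U1 and U2 were measured by few genes. Snrpc, the U1 protein that steadies pairing with the 5′ splice site, had 47.7, 40.5 and 36.8 in SHR+Allisartan, against 28.8, 26.8 and 28.9 in SHR, with 25.2, 24.3 and 26.2 in WKY. All SHR+Allisartan libraries lay above the rest, with a log2 change of 0.55 (SE 0.09, adjusted p = 0.00144). Snrpa, another U1 protein, had a log2 change of -0.04 (adjusted p = 0.862), and the U2 genes Snrpa1 and Snrpb2 had 0.13 and 0.34 (adjusted p = 0.433 and 0.0804). Snrpb2 was called higher without SHR+Allisartan 3 (adjusted p = 0.0224) and with a replicate block (0.0479).

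SF3a and SF3b, which hold U2 at the branch point, split as well. Sf3b5 had 32.7, 29.3 and 29.0 in SHR+Allisartan hearts, against 46.6, 37.2 and 53.0 in SHR hearts, with 45.7, 45.5 and 45.5 in WKY hearts, a log2 change of -0.57 from SHR (SE 0.11, adjusted p = 0.00344). Sf3b3, a large propeller protein of the SF3b core, had 6.79, 6.52 and 7.38 in SHR+Allisartan, against 8.99, 10.1 and 11.2 in SHR, with 8.44, 8.97 and 9.18 in WKY (log2 change -0.52, SE 0.10, adjusted p = 0.00266). For both genes all SHR+Allisartan libraries were the lowest of the 9. Sf3b1, the subunit that clasps the branch point and is mutated in human blood disorders, was not called (log2 change -0.10, adjusted p = 0.277), nor were Sf3b2, Sf3b4 and Sf3b6 (0.15, 0.22 and 0.15). Sf3a2 was called higher with 14.2, 14.4 and 13.0 in SHR+Allisartan, against 9.57, 10.2 and 11.7 in SHR (log2 change 0.39, SE 0.10, adjusted p = 0.0121). Sf3a1 and Sf3a3 had log2 changes of 0.24 and 0.25 (adjusted p = 0.0822 and 0.0925), with groups that did not overlap.

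LSm proteins 2 to 8 form the ring of U6, in which Lsm6 stood out with 7.59, 8.90 and 7.19 in SHR+Allisartan hearts, against 3.74, 3.83 and 4.01 in SHR hearts, with 4.42, 4.27 and 3.99 in WKY hearts. Its log2 change was 0.94 (SE 0.10, adjusted p = 0.000118). Lsm2 and Lsm4 were also called higher (log2 changes of 0.62 and 0.65, adjusted p = 0.00393 and 0.00464), while Lsm3, Lsm5, Lsm7 and Lsm8 were not (0.11, 0.52, 0.11 and 0.24). Lsm5 was at 1.02, 2.66 and 1.84 in SHR+Allisartan, against 2.84, 0.562 and 0.586 in SHR, and was called higher without SHR 1 (adjusted p = 0.0158). Lsm1, which replaces Lsm8 in the cytoplasmic ring that promotes mRNA decay, was not called (log2 change -0.20, adjusted p = 0.268). Lsm11, a protein of the U7 snRNP that processes histone mRNA, was low and lower still in SHR+Allisartan, at 1.16, 1.21 and 1.32, against 1.96, 2.13 and 2.47 in SHR (log2 change -0.63, adjusted p = 0.00516). Lsm10, its U7 partner, changed by 0.29 without a call, though it was called higher without SHR+Allisartan 2 (adjusted p = 0.0229). Lsm14b, of cytoplasmic mRNA granules, was called higher (0.37), and so was Lsm12 (0.28, adjusted p = 0.0215). Lsmem1, the membrane protein gene, had 20.7, 22.5 and 20.1 in SHR+Allisartan, against 13.6, 12.4 and 9.96 in SHR, and was called higher by 0.80 (adjusted p = 0.00051). The call of Lsm12 ended without SHR 1, SHR+Allisartan 2 or SHR+Allisartan 3 (adjusted p = 0.0704, 0.0501 and 0.0682) and under no rescaling, quantile normalization and cyclic loess (adjusted p = 0.0786, 0.0622 and 0.0576).

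**Figure D4:**
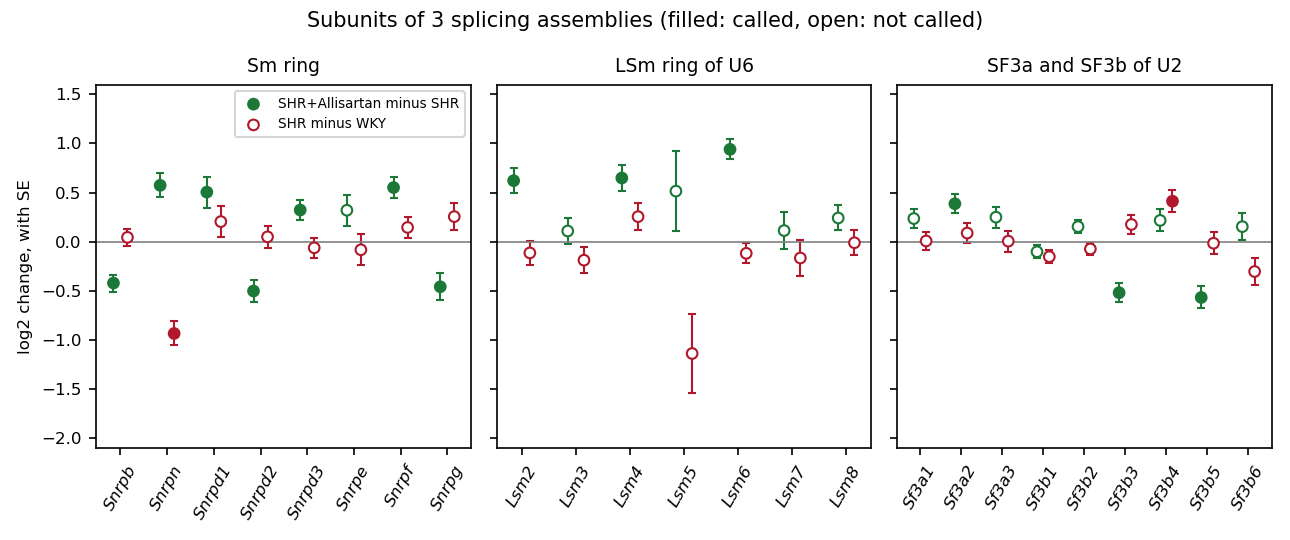
Log2 change with SE of the subunits of the Sm ring, the U6 LSm ring and SF3a with SF3b, for SHR+Allisartan minus SHR (green) and SHR minus WKY (red), where filled points passed an adjusted p of 0.05. Within the Sm ring, green points lie between -0.50 for Snrpd2 and 0.57 for Snrpn, and in the U6 ring the filled green points are Lsm2, Lsm4 and Lsm6.

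Among the Prpf genes, named after yeast mutants in pre-mRNA processing, 5 were called higher and 1 lower. Prpf38b, a paralog of the spliceosome protein Prpf38a, had 14.6, 14.7 and 16.3 in SHR+Allisartan hearts, against 8.34, 7.25 and 8.56 in SHR hearts, with 8.73, 9.50 and 8.73 in WKY hearts, a log2 change of 0.88 (SE 0.09, adjusted p = 9.28e-05). Prpf39, a relative of a yeast U1 protein, was called higher by 0.87 (adjusted p = 0.00351), as were the kinase gene Prpf4b and Prpf38a (0.34 and 0.35). Prpf8, the U5 scaffold that lines the active site, was called lower with 20.2, 21.8 and 18.7 in SHR+Allisartan, against 23.4, 27.1 and 25.97 in SHR, with 26.3, 29.9 and 27.7 in WKY (log2 change -0.32, SE 0.09, adjusted p = 0.016). Its call ended without SHR 2, SHR 3 or SHR+Allisartan 3 (adjusted p = 0.0618, 0.0515 and 0.0525), and that of Prpf38a without SHR 1 (adjusted p = 0.051). Prpf3 and Prpf4 of U4/U6, Prpf6 of the tri-snRNP, Prpf18, Prpf19, a ubiquitin ligase of the catalytic spliceosome, and Prpf40b were not called, with log2 changes between -0.27 for Prpf4 and 0.14 for Prpf40b.

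Of the SR proteins, Srsf7, which also helps export mRNA, had 15.2, 15.4 and 16.7 in SHR+Allisartan hearts, against 10.8, 7.90 and 9.84 in SHR hearts, with 14.3, 15.5 and 14.3 in WKY hearts. SHR libraries were the lowest, and the other groups overlapped (log2 change from SHR 0.71, SE 0.11, adjusted p = 0.000733). Srsf10, Srsf11 and Srsf1, the last a founding member of the family that promotes exon inclusion, were also called higher, by 0.87, 0.72 and 0.50 (adjusted p = 0.00447, 0.00184 and 0.014). Srsf10 spread within SHR, at 7.32, 3.88 and 4.36, against 9.85, 8.81 and 10.1 in SHR+Allisartan. The call of Srsf1 ended without SHR 2 or SHR 3 (adjusted p = 0.0555 and 0.0562). Srsf2, Srsf3 and Srsf5 were not called, with log2 changes of 0.13, 0.12 and 0.09 (adjusted p = 0.222, 0.396 and 0.604), and neither were Srsf4, Srsf6 and Srsf9. Srsf6 was called higher without SHR+Allisartan 3 (log2 change 0.25, adjusted p = 0.0469).

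The comparison of SHR with WKY hearts asks how the hypertensive strain differed without the drug. It shares the SHR libraries with the comparison above, so the 2 sets of values are not independent. Of the 80 tested genes 9 were called lower and 2 higher in SHR, or 11.25% and 2.5%, against a background of 9.93% lower and 11.9% higher over all genes (7.95% and 14.5% with no rescaling). The share called lower was near the background, and without the 2 Lsmem genes the counts were 8 lower and 2 higher of 78. The median log2 change was -0.11, against 0.01 over all genes, with 24 genes below and 5 above in every library, where 19% and 21.9% of all genes were. Leaving out 1 library gave 4 to 10 genes called lower and 1 to 2 called higher, with the 4 lower calls found without WKY 2.

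Among the splicing genes called between the strains Snrpn had the smallest p, with the SHR and WKY values given above and a log2 change of -0.93 (SE 0.12, adjusted p = 0.000531), next to Lsmem1 of the membrane proteins, at 13.6, 12.4 and 9.96 in SHR and 24.1, 21.6 and 25.4 in WKY (log2 change -0.96, SE 0.11, adjusted p = 0.000257). Srsf7 and Hnrnpd were called lower in SHR than in WKY by -0.61 and -0.42 on the log2 scale (SE 0.11 and 0.09, adjusted p = 0.0028 and 0.00572). Prpf3, which holds U4 and U6 together, was called higher, with 5.79, 5.69 and 6.27 in SHR and 3.30, 4.07 and 4.15 in WKY (log2 change 0.57, SE 0.11, adjusted p = 0.00535). These 5 calls held under all 19 alternatives. Snrpb, the paralog of Snrpn, had a log2 change of 0.05 (adjusted p = 0.754).

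The other calls between the strains did not hold under every alternative. Prpf38a (-0.39), Hnrnpdl (-0.32), Srsf1 (-0.46), Prpf39 (-0.61) and Srsf5 (-0.39) were called lower in SHR and Sf3b4 (0.41), a small SF3b subunit, higher. Without WKY 2 all 6 lost their call, with adjusted p of 0.0623, 0.0571, 0.0692, 0.0749, 0.164 and 0.0837 in that order. Without WKY 3, Hnrnpdl, Srsf1, Prpf39, Srsf5 and Sf3b4 lost it (adjusted p = 0.0501, 0.0566, 0.0833, 0.0892 and 0.0625), and without WKY 1, Prpf38a, Srsf1 and Prpf39 did (0.0545, 0.0842 and 0.0545). Without SHR 2, Hnrnpdl, Srsf1, Prpf39 and Sf3b4 lost it (0.0525, 0.1, 0.0734 and 0.0731), without SHR 3, Hnrnpdl, Srsf1, Prpf39 and Srsf5 (0.0586, 0.11, 0.0771 and 0.11), and without SHR 1, Srsf5 and Sf3b4 (0.143 and 0.0755). Srsf5 also lost it without SHR+Allisartan 1 or SHR+Allisartan 2 (0.0579 and 0.0572) and under 5 other settings (adjusted p up to 0.0819). Prpf39 also lost it with no filter on low values (0.0569). Without SHR 1, in turn, Lsm5 and Srsf10 were called lower (adjusted p = 0.00258 and 0.00165), with Lsm5 at 2.84, 0.562 and 0.586 in SHR and 3.41, 3.09 and 2.41 in WKY. Srsf10 was also called lower with a replicate block (0.0485).

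Families with no call between the strains were Sf3a and U2af. Without the Lsmem genes, the Lsm family had 0 higher and 0 lower of 13 as well. In Sf3a and U2af the genes with the smallest p, Sf3a2 and U2af1, had log2 changes of 0.09 and -0.19 (adjusted p = 0.564 and 0.302). The most abundant gene, Hnrnpa2b1, changed by -0.11 (SE 0.07, adjusted p = 0.265), Hnrnpa1 by -0.16 and Hnrnpu by -0.15 (adjusted p = 0.192 and 0.189). Not called either were Hnrnpk, Hnrnpl, Hnrnpc, U2af2, Prpf8, Sf3a1, Sf3b1, Snrpa, Snrpd1, Lsm2, Srsf2 and Srsf3, with log2 changes between -0.24 for Srsf3 and 0.21 for Snrpd1. Srsf2 was called lower with a replicate block (adjusted p = 0.0494).

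Treated hypertensive rats were also set against WKY, again with libraries used in the comparisons above. Of 80 genes 22 were called higher and 9 lower in SHR+Allisartan, or 27.5% and 11.25%, against a background of 12.9% and 11.4% over all genes, so the lower share was near the background. The median log2 change was 0.19, against -0.01 over all genes, and 37 genes lay above and 11 below in every library, where 20.2% and 19.9% of all genes did. Hnrnpa2b1 (0.77), Lsm6 (0.82), Hnrnpr (0.75), Prpf38b (0.72) and Snrpc (0.70) led the higher genes, with adjusted p from 4.02e-05 to 0.000548. Lsm4 (0.90), Snrpf (0.70), U2af1 (0.78), Hnrnph2 (0.42), Sf3b4 (0.63), Hnrnpab (3.66) and Hnrnpu (0.36) followed, and the other 10 called higher were Sf3a2, U2af1l4, Prpf3, Snrpd1, Lsm12, Lsm2, Srsf11, Hnrnpf, Snrpa1 and Hnrnpul2. Among these the calls of Lsm2 (without WKY 3, adjusted p = 0.0533), Srsf11 (without WKY 2 or SHR+Allisartan 3, up to 0.0624), Hnrnpf (without WKY 2, SHR+Allisartan 1 or SHR+Allisartan 2, up to 0.0608), Snrpa1 (without any WKY library, SHR+Allisartan 1 or SHR+Allisartan 2, up to 0.096) and Hnrnpul2 (without any WKY or SHR+Allisartan library, up to 0.116) did not hold. Snrpa1 also lost its call with no filter on low values (0.0546). Hnrnpul2 also lost its call with no rescaling, quantile normalization, cyclic loess and only the 6 libraries (0.0542, 0.0683, 0.0669 and 0.0553). Snrpn, Srsf7 and Hnrnpd were not called (log2 changes of -0.36, 0.10 and 0.18, adjusted p = 0.0553, 0.526 and 0.143). Snrpn was called lower with no rescaling, quantile normalization, cyclic loess and only the 6 libraries (adjusted p = 0.0404, 0.0252, 0.0338 and 0.0255), and without SHR 2 or SHR+Allisartan 1 (0.0191 and 0.0475). It was also called lower with a replicate block (0.0375). Hnrnpd was called higher without SHR+Allisartan 3 (adjusted p = 0.042).

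The genes called lower than in WKY were Prpf8 (-0.46), Sf3b5 (-0.58), Snrpb (-0.37), Snrpd2 (-0.45), Prpf4 (-0.44), Sf3b1 (-0.25), Lsm11 (-0.48), Sf3b3 (-0.34) and Hnrnpk (-0.24), with adjusted p from 0.00415 for Prpf8 to 0.0422 for Hnrnpk. Without any 1 of WKY 1, WKY 2, WKY 3 and SHR+Allisartan 2, the count was 5. The call of Snrpd2 ended without WKY 1 (adjusted p = 0.0504), that of Prpf4 without WKY 1 or SHR+Allisartan 3 (up to 0.0789), that of Sf3b1 without any WKY library, SHR+Allisartan 2 or SHR+Allisartan 3 (up to 0.0678), and those of Lsm11 and Sf3b3 without WKY 2, WKY 3, SHR+Allisartan 1 or SHR+Allisartan 2 (up to 0.0949 and 0.0886). That of Hnrnpk ended without any WKY library, SHR 2, SHR+Allisartan 2 or SHR+Allisartan 3 (up to 0.136), with no filter on low values (0.0517) and with a replicate block (0.0594). Sf3a1, Hnrnpa1 and Srsf5 had log2 changes of 0.25, 0.22 and -0.30 without a call (adjusted p = 0.09, 0.0773 and 0.111), and Snrpa, U2af2, Srsf1, Srsf2, Srsf3, Hnrnpl and Hnrnpc were not called either, between -0.12 for Srsf3 and 0.55 for Hnrnpc. Hnrnpa1 was called higher without SHR 3 (adjusted p = 0.0459), and Srsf5 was called lower with a replicate block (0.0481).

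Splicing genes outside the 8 families were counted in the same fit, in 7 lists of 150 genes. In SHR+Allisartan against SHR, 54 of the 147 tested were called higher and 10 lower, or 36.7% and 6.80%, beside the 16.1% and 17.4% of all genes. Of 10 minor spliceosome genes 5 were higher and 0 lower, of 29 SR-related proteins and SR kinases 12 and 2, of 29 other hnRNP-type proteins 13 and 2, and of 22 other snRNP proteins 9 and 2. Of 24 factors of the catalytic steps 7 were higher and 3 lower, of 17 exon junction and export genes 5 and 1, and of 16 snRNP assembly genes 3 and 0. The higher share of the snRNP assembly genes, 18.75%, was near the background. In SHR against WKY the 7 lists had 15 genes lower and 3 higher, or 10.2% and 2.04%, beside 9.93% and 11.9% of all genes, so the lower share was near the background. In SHR+Allisartan against WKY they had 35 higher and 6 lower, or 23.8% and 4.08%, beside 12.9% and 11.4% of all genes. The 12 SR-related genes, the 54 and the 35 include Rbm39. It passed the filter on low values only through the SHR+Allisartan libraries, so it could not come out lower in that group. Genes annotated to the spliceosome outside the rule, a set added after the data were seen, had 24 of 67 higher and 8 lower in SHR+Allisartan against SHR. Of the 73 genes of that set, 56 are also in the 7 lists, so it largely repeats them.

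**Figure D5:**
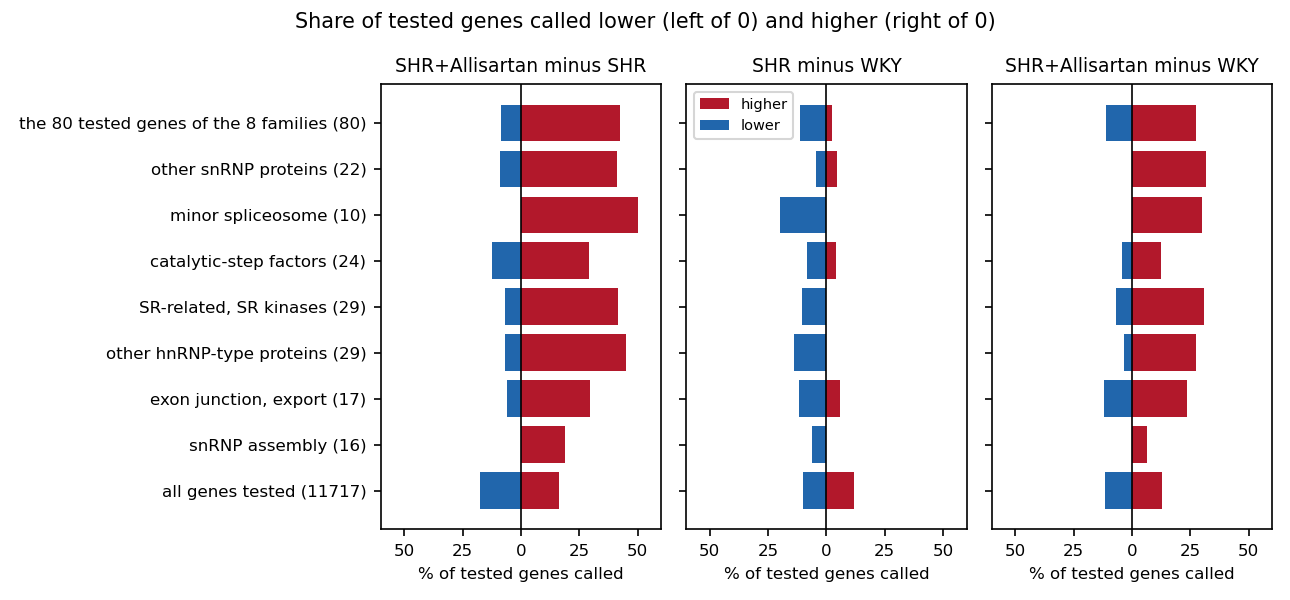
Percentage of tested genes called lower (blue, left of 0) and higher (red, right of 0) in SHR+Allisartan minus SHR, SHR minus WKY and SHR+Allisartan minus WKY, for the 80 genes of the 8 families, 7 lists of other splicing genes and all genes tested (number tested in brackets). In SHR+Allisartan minus SHR the 80 genes reach 42.5% higher and 8.75% lower, beside 16.1% and 17.4% of all genes.

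The genes below had the smallest p in each direction of a list in SHR+Allisartan against SHR. They were picked on these same values and are extremes, not the scale of a list. The median log2 changes of the lists ran from 0.12 for factors of the catalytic steps to 0.48 for minor spliceosome genes. Zcrb1, a protein of the minor spliceosome, had 31.4, 32.7 and 34.2 in SHR+Allisartan, against 19.5, 18.2 and 21.2 in SHR (log2 change 0.73). U2surp, which works beside U2, had 6.67, 7.26 and 7.87, against 4.40, 3.87 and 4.004 in SHR (0.76), while Eftud2, the U5 GTPase that binds Prpf8, had 11.4, 12.7 and 11.7, against 15.2, 15.9 and 17.1 in SHR (-0.42). Both pairs of groups were apart. Fubp1 was higher (0.68) and Ptbp1, a repressor of muscle and nerve exons, lower (-0.30), Cwc15 higher (0.54) and the helicase gene Dhx38 lower (-0.35). Magoh of the exon junction complex was higher (0.66) and the export gene Nxt1 lower (-0.76), and Smn1, the gene of the snRNP assembly protein lost in human spinal muscular atrophy, was higher (0.69). The muscle SR kinase gene Srpk3 was lower, with 4.31, 5.72 and 5.34, against 8.51, 7.92 and 8.42 in SHR (-0.65). Rbm39 was at 2.71, 4.11 and 1.67 in SHR+Allisartan, against 0.211, 0.133 and 0.138 in SHR, with 0.116, 0.169 and 0.203 in WKY. The SHR and WKY levels are under the pseudocount and may be failed estimates, so no fold is given. Rbm39 passed the filter on low values only through the SHR+Allisartan libraries. The calls of Dhx38 (without SHR 3, adjusted p = 0.0581), Nxt1 (without SHR 3 or SHR+Allisartan 3, 0.0682 and 0.0579) and Ptbp1 (without SHR 2, SHR 3, SHR+Allisartan 1 or SHR+Allisartan 3, 0.0814, 0.0962, 0.0591 and 0.104) did not hold.

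Markers of cell types moved with the same comparisons, and their part in the results was not tested. Of 10 cardiomyocyte markers 6 were called higher and 3 lower in SHR+Allisartan against SHR, with summed levels of 36853.7 to 38071 in SHR+Allisartan, 28469.7 to 28733 in SHR and 31027 to 32626 in WKY. Of 9 fibroblast markers 7 were lower and 0 higher (summed levels 700.2 to 777 in SHR+Allisartan, 1402 to 1612 in SHR and 605 to 667 in WKY), and of 8 macrophage markers 6 were lower and 0 higher (223 to 274 in SHR+Allisartan, 420.03 to 494 in SHR and 156 to 177 in WKY). Of 7 endothelial markers 2 were higher and 0 lower, of 7 smooth muscle and pericyte markers and of 4 proliferation markers none passed in either direction with limma (at an unadjusted p under 0.05, 3 and 1 were lower and 0 higher), 1 lymphocyte marker of 6 was testable and was lower, and of 3 erythroid markers measured, 2 were higher and 1 lower. No marker of the first 5 lists was listed at 0 in every library. Heart muscle markers had by far the highest summed levels in all 9 libraries, which fits the labelled tissue.

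Reads of near copies can be shared between loci, and how such reads were counted is not stated in the sources here. The reference lists pseudogenes named after their parent gene for 32 of the 80 tested genes, with 50 for Hnrnpa1, 10 each for Snrpc and Srsf3, 8 for Snrpg, 7 each for Hnrnpk and Srsf7 and 6 for Hnrnpc, so the levels of these genes are uncertain. Any pseudogenes listed under other symbols were not counted, so the other 48 genes may have near copies as well. In SHR+Allisartan against SHR, 19 of the 48 genes without a pseudogene of their name were called higher and 4 lower, and 15 of the 32 with 1 or more were higher and 3 lower. Within a group, the highest library was in the median gene 1.16 times the lowest in SHR+Allisartan, 1.19 times in SHR and 1.14 times in WKY. It was over 3 times the lowest in 4 genes, Hnrnpab, Hnrnpc, Hnrnph3 and Lsm5. Totals of the deposited FPKM were 377815 to 384598 in SHR+Allisartan libraries, 363755 to 373942 in SHR libraries and 359207 to 388172 in WKY libraries. The files give no counts, so depth is unknown and no counting interval is given.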

How the data were processed

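Gene expression was measured by RNA sequencing of rat heart, 3 libraries each of SHR+Allisartan, SHR and WKY. The mirVana kit was used for extraction and the TruSeq stranded mRNA kit for libraries, per the labels' protocols. The authors deposited FPKM values per gene and library. The submitters' processing notes name build Rnor_6.0 and the tools Cufflinks, DESeq, HISAT2, HTSeq and Trimmomatic, with neither versions nor roles.

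From these FPKM values, each library was divided by a median-of-ratios factor over the 9194 genes at 1 or more in all libraries (factors 0.965 to 1.04). Genes below 0.5 in 7 or more libraries were dropped, 0.5 was added before log2, and limma 3.58.1 in R 4.3.3 fitted 1 mean per group to all 9 libraries with a variance trend (6 residual degrees of freedom). P-values were two-sided, adjusted by Benjamini-Hochberg over all 11717 genes and called under 0.05. The procedure was tested on simulated data. There a log2 change of 0.5 was called in 46.3% of 67 genes for SHR+Allisartan minus SHR. It was called in 25.4% of 67 for SHR minus WKY and in 38.8% of 67 for SHR+Allisartan minus WKY. For a log2 change of 1 the shares were 83.6%, 82.1% and 88.1% in the same order. A gene that was not called may therefore still differ. All 3 simulated comparisons used the same gene means and spreads, so their shares differ only by random draw and do not rank the comparisons. In the simulation 11517 of the 11717 genes were unchanged, while 33.5% of all genes were called in the data for SHR+Allisartan minus SHR. The adjusted threshold was therefore stricter in the simulation, and its shares are not the sensitivity in the data. Python 3.11.15 with pandas 2.3.3 and matplotlib 3.10.9 made summaries and figures. Symbols of 27 genes that had turned into dates were restored by identifier. Names, spans and promoters came from RefSeq on GRCr8, whose build differs from that of the files.

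The genes, lists and the rule for naming genes were chosen with earlier results of these data known. The rule named, per comparison, up to 12 called genes per direction with the smallest p, the gene with the smallest p of a family with no call, the 3 most abundant genes per family and a panel of 23 genes given in every comparison. All other tested genes may be named in SHR+Allisartan against SHR, which widened the rule, as did the genes named from the lists, and 1 called gene is not reported here. Alternatives were no rescaling, quantile and cyclic loess normalization, removal of a trend with genomic span, pseudocounts of 1 and 0.1, no filter, robust moderation, a replicate block, only the 6 libraries of a comparison, and leaving out each library. Same-numbered libraries did not deviate together (9 correlations, -0.06 to 0.08), so numbers were not used as pairs.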

Additional observations from a re-analysis of the deposited data

How the results depend on the processing

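Over 19 alternatives, the 6 counts of genes called and 165 log2 changes were recomputed. Of 114 recomputed counts 104 stayed within 1.5 times the reported one, and the other 10 all left out 1 library. Leaving out each library gave 30 to 36 genes higher and 5 to 8 lower in SHR+Allisartan against SHR, 1 to 2 higher and 4 to 10 lower in SHR against WKY, and 18 to 23 higher and 5 to 9 lower in SHR+Allisartan against WKY. These fits rest on 8 libraries, and the cause was not tested otherwise. A replicate block, although same-numbered libraries did not deviate together, gave 36 higher and 7 lower in SHR+Allisartan against SHR, 3 and 12 in SHR against WKY, and 22 and 10 in SHR+Allisartan against WKY.

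Of 3132 recomputed log2 changes 2958 kept direction and side of the threshold, 118 kept direction but lost the call and 25 gained it. The 31 that turned sign belong to genes that were not called. In SHR+Allisartan against SHR with no rescaling these were Lsm14a (-0.009024), Prpf19 (-0.004986), Prpf6 (-0.02601) and Srsf4 (-0.01498), with cyclic loess Prpf19 (-0.008857) and Snrpa (0.01227), and with quantile normalization Snrpa (0.01971). Leaving out 1 library gave -0.009225 to 0.09563 for Lsm14a, -0.01619 to 0.3405 for Lsm7, -0.1013 to 0.03193 for Prpf3, -0.05658 to 0.1584 for Prpf6, -0.1481 to 0.08168 for Snrpa and -0.01197 to 0.1903 for Srsf5. In SHR against WKY, Hnrnpk turned with no rescaling (0.01928) and cyclic loess (0.006294), and Sf3a1 with quantile normalization (-0.016) and with the span trend removed (-0.009118). Leaving out 1 library gave -0.4311 to 0.3779 for Hnrnpc, -0.07913 to 0.02374 for Hnrnpk, -0.04032 to 0.07773 for Sf3a1, -0.008341 to 0.1619 for Snrpa, -0.0308 to 0.1223 for Snrpb and -0.0419 to 0.0582 for U2af2, and in SHR+Allisartan against WKY -0.08194 to 0.1478 for Snrpa.

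Depth is unknown, and 3 libraries per group limit the precision of every value.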
